A study of Mus musculus with 12 samples.

Results

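The genes described here are 44 interferon-stimulated antiviral effectors measured in AML12 cells, an immortalised mouse hepatocyte line, by RNA sequencing. They were chosen by name as effectors outside the sensor, GTPase, oligoadenylate synthetase, ISG15 and class I antigen-presentation families. The choice was made with earlier results of these data known, so comparisons of members with all genes are descriptions and no tests. Each member was looked up by symbol in both deposited tables. The table for the siRNA contrast lists 41 of the 44 among its 2150 genes, and the table for the plasmid contrast lists 9 of the 44 among its 707 genes. In siDUSP6 cells 37 members were higher than in NC cells and 0 were lower, where a call is an adjusted p (DESeq2) under 0.05 in the authors' deposited table. Of the 13102 genes tested in that contrast, 7.76% were called higher and 7.19% lower. In the libraries labelled GFP-DUSP6, 9 members were higher than in GFP libraries and 0 were lower, against 3.39% of 12592 tested genes called higher and 1.22% lower in that contrast.

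siDUSP6 cells had received siRNA against DUSP6, a phosphatase that acts on the kinase ERK, and NC cells a negative-control siRNA, both for 48 h. GFP-DUSP6 cells carried a plasmid for DUSP6 joined to green fluorescent protein and GFP cells a plasmid for the fluorescent protein alone, both for 24 h. All 4 groups of 3 libraries were transfected with lipo2000 in medium with serum, dexamethasone and ITS, and total RNA was taken by Trizol. The 2 contrasts share no library. The labels do not say that the libraries of a group came from separate cultures, so a p-value here reflects library-to-library spread alone, which may be technical. The specific and the control siRNA differ in sequence as well as in target, and the effects of sequence and of less Dusp6 transcript cannot be told apart.

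Interferons bind cell-surface receptors whose kinases activate transcription factors, which then bind the interferon-stimulated response element in promoters. The genes switched on this way encode proteins that act at each stage of viral growth: they bind foreign RNA, block protein synthesis, hold virions at the membrane, modify proteins with ubiquitin or ADP-ribose, or prompt the death of the cell. Hepatocytes carry the type I interferon receptor and switch on many of these genes when exposed to interferon.

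Promoter windows show which members hold letters that match the core of the response element near a start site. Windows from 250 bases before to 50 after each RefSeq start site (build GRCm38.p6, the mm10 assembly) were found for 36 of the 44 members. Windows of Ifi27, Zbp1, Parp9, Parp10, Parp14, Tor3a, Ly6e and Rtp4 were not used here. The response element core, spelled GAAA, any 2 bases and GAAA again and searched on both strands with overlapping matches allowed, was in a window of 15 of the 36 members (41.7%) and of 1079 of all 27025 genes with a window (3.99%). Counted by window, the shares were 18 of 52 for members (34.6%) and 1131 of 32851 for all genes (3.44%). The letters TTCNNNGAA, the core of the gamma-activated site, read the same on both strands and were in a window of 7 of the 36 members (19.4%) and of 2582 of all genes (9.55%). The 15 members with the first motif are shown because their sites can be set beside their fold changes. Each line gives 26 bases read 5′ to 3′ on the gene's strand with the match nearest a start site in capitals, so a match on the other strand reads as TTTC letters.

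Bst2, chr8:71537579-71537604, minus strand: aggaaaatGAAACTGAAAggctgcag
Rsad2, chr12:26456555-26456580, minus strand: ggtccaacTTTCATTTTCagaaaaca
Trim30a, chr7:104446106-104446131, minus strand: gtttttagTTTCTTTTTCtcagttcc
Trim21, chr7:102565452-102565477, minus strand: tctgagagGAAACTGAAAgtgaaatt
Apol9a, chr15:77411116-77411141, minus strand: actttcagTTTCCATTTCccagttgg
Apol9b, chr15:77729033-77729058, plus strand: actttcagTTTCCATTTCccagttgg
Phf11b, chr14:59341363-59341388, minus strand: catttagaGAAAAAGAAActagaaac
Ifi203, chr1:173942510-173942535, minus strand: gagctgggGAAATCGAAAgctatgaa
Ifi208, chr1:173673599-173673624, plus strand: tctctgagGAAATCGAAAgctatgaa
Ifit1, chr19:34640796-34640821, plus strand: agtctcagTTTCAGTTTCtcactgct
Ifit3, chr19:34583399-34583424, plus strand: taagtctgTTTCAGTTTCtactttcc
Ifit3b, chr19:34607795-34607820, plus strand: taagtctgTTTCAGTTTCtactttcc
Ifitm3, chr7:141010725-141010750, minus strand: aaattcagGAAAAGGAAActtctgag
Shisa5, chr9:109054890-109054915, plus strand: agattcgaTTTCCTTTTCtttgaaag
Eif2ak2, chr17:78882537-78882562, minus strand: tccgccggGAAAACGAAAcagaagag

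The same match and flanks stood in the related genes Apol9a and Apol9b, and another match and its flanks were the same in Ifit3 and Ifit3b. Ifi203 and Ifi208 shared the match and the 8 bases after it. In 8 of the 15 members, Bst2, Trim21, Apol9a, Apol9b, Ifit1, Ifit3, Ifit3b and Ifitm3, a single window held 2 matches. Those of Bst2, Trim21, Apol9a and Apol9b overlapped each other, and those of Ifit1, Ifit3, Ifit3b and Ifitm3 were separate. The share of all promoters with 2 matches was not counted. The Apol9b window is shown whole because this gene had the largest fitted fold change of any member in the siRNA contrast, with its overlapping matches in capitals. The Apol9a window, not printed, shared a run of 232 identical bases with it.

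Apol9b, chr15:77728822-77729121, plus strand: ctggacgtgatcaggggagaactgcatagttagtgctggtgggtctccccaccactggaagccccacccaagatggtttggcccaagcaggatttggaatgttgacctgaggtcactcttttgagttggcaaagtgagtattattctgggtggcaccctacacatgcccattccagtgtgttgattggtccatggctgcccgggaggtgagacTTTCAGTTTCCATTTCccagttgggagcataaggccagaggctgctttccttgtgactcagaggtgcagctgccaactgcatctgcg

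The next 4 windows held no match to these letters, which says only that the letters at this spacing are not in these windows. Phf11d and Ifi44 are shown for their large fold changes in the siRNA contrast. Lgals3bp and Slfn2 are shown because they had the smallest plasmid adjusted p of the members called in both contrasts. Bst2, Rsad2 and Ifit1, also called in both, held a match.

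Phf11d, chr14:59365441-59365740, minus strand: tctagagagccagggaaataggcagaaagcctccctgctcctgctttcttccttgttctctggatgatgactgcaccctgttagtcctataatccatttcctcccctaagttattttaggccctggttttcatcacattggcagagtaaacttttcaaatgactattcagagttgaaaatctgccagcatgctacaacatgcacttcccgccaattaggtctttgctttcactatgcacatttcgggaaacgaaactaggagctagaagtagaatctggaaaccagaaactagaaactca
Ifi44, chr3:151749861-151750160, minus strand: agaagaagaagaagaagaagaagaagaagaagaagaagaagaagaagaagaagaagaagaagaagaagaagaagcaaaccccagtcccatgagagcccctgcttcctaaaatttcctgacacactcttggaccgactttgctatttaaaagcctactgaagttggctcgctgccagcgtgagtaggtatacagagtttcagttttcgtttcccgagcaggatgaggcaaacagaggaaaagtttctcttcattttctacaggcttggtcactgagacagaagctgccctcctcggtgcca
Lgals3bp, chr11:118401910-118402209, minus strand: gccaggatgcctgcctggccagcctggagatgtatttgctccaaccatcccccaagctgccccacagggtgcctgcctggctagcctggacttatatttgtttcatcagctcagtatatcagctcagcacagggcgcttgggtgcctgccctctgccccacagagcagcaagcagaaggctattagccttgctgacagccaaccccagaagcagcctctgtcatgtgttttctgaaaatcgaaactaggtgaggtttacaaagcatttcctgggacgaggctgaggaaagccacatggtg
Slfn2, chr11:83064862-83065161, plus strand: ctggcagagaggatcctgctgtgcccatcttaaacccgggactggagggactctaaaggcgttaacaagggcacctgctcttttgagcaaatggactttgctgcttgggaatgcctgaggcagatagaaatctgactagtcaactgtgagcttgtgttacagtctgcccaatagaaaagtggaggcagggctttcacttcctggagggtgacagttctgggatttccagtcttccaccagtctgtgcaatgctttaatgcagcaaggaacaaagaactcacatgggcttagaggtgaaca

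Of the 30 members called in the siRNA contrast that had a window, the 13 with the response element core had a median log2 fold change of 4.73 (1.29 to 8.93). The 17 without it had a median of 2.28 (0.53 to 7.47), and the ranges of the groups overlapped. The 13 count Apol9a and Apol9b, and Ifit3 and Ifit3b, as separate genes, though each pair has the same printed site. The groups were not matched for NC level, which enters the fold change, and their difference was not tested. In the plasmid contrast 3 of the 8 called members with a window held it, namely Bst2, Rsad2 and Ifit1. The map of match positions shows matches from position -188 to position 41, counted from the start site at 0.

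**Figure D1:**
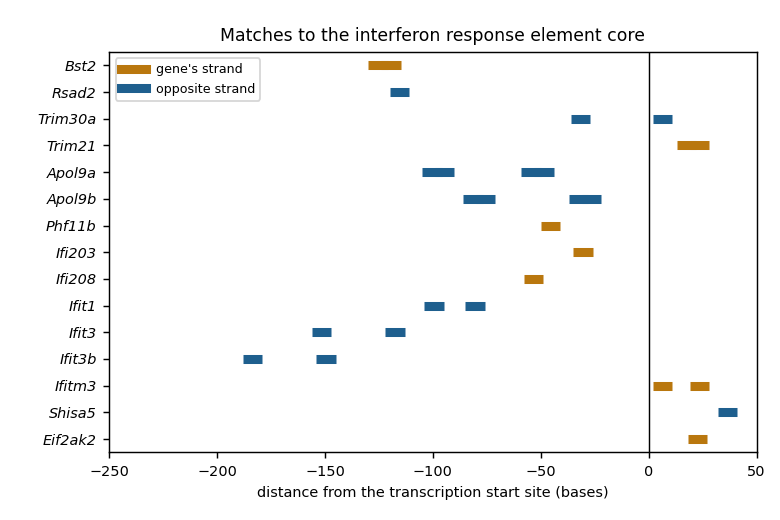
Positions of response element core matches (GAAA, any 2 bases, GAAA) in the promoter windows of the 15 members that hold one, as distance in bases from a RefSeq start site (x axis, 0 at the start site), with bars coloured by strand and the windows of genes with several start sites drawn together. Matches lie before the start site in 10 of the 15 members, Bst2 and Rsad2 among them, and after it in Trim21, Ifitm3, Shisa5 and Eif2ak2, while Trim30a has them on both sides of its start sites.

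Dusp6 itself had 1770, 1905 and 1771 reads in siDUSP6 libraries, against 4047, 3752 and 3888 in NC libraries. It fell by 1.14 ± 0.06 on the log2 scale (edgeR estimate ± SE; adjusted p = 3.74e-56 in the authors' deposited table, DESeq2). In the libraries labelled GFP-DUSP6 it had 2445, 2537 and 2285 reads, against 3216, 3112 and 3451 in GFP libraries. That is lower by 0.51 ± 0.06 (log2; adjusted p = 2.56e-12 in the authors' deposited table, DESeq2), which goes against the label, and the sources used here do not say how reads from the plasmid's own DUSP6 sequence were counted. Every direction drawn from that contrast therefore belongs to the libraries labelled GFP-DUSP6. Size factors ran from 0.951 to 1.04 in the siRNA contrast and from 0.94 to 1.05 in the plasmid contrast, so raw reads can be compared across the 6 libraries of a contrast. The listed genes summed to 3869822 to 4078892 reads in siDUSP6 libraries and 3500977 to 3840630 in NC libraries, and to 1456418 to 1531091 in libraries labelled GFP-DUSP6 and 1303866 to 1405198 in GFP libraries, which are sums over listed genes and not sequencing depths.

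Markers of other cell types were mostly not listed. In the siRNA contrast 0 of 6 plasmacytoid dendritic cell markers, 0 of 7 endothelial and 0 of 7 stellate cell markers were listed, and of 10 macrophage markers Cd14 was listed and was lower in siDUSP6 cells by 0.48 ± 0.09 (log2). Of 13 hepatocyte markers with a matching gene, 2 rose (Krt8 and Krt18) and 4 fell (Alb, Ttr, Apoa1 and Hnf4a) in siDUSP6 cells. Alb, serum albumin, averaged 171 ± 38.2 normalized reads in siDUSP6 libraries and 674 ± 94.0 in NC libraries (SD, n = 3 each). Albumin transcripts were thus present in both groups but changed by -1.98 ± 0.16 (log2; adjusted p = 7.36e-29, DESeq2, in the authors' deposited table). Ttr averaged 67.1 in siDUSP6 and 255 in NC libraries, and Apoa1 35.6 in siDUSP6 and 105 in NC libraries. The listed hepatocyte markers summed to 82472 to 91709 normalized reads in siDUSP6 libraries and 64449 to 80439 in NC libraries. Alb, Ttr and Apoa1 are a small part of that sum, so it does not show their fall. The part of all these markers in the members' changes was not tested, and in these bulk samples fewer cells of a type and less RNA per cell cannot be told apart.

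The 37 members called higher in siDUSP6 cells had a median log2 fold change of 2.85 (0.53 to 8.93), the same with Ifitm3 at its lower bound. The median over all 1017 genes called higher was 0.42, and over the 980 of them that are not members it was 0.41. A log2 fold change of at least 1 was reached by 35 members, against 1.49% of all tested genes called higher at that size, and 28 members reached 2. In each of the 37 the lowest siDUSP6 library lay above the highest NC library, as the groups of 98.8% of all called genes did not overlap. Fold changes below are edgeR estimates with their standard errors, computed from the deposited reads with size factors worked out from the authors' columns. In that refit 37 members were called higher, Tnfsf10 among them and Nmi not, against 6.5% of tested genes.

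The IFIT proteins bind RNA that lacks host-type cap marks and block its translation, and their genes stand side by side on chromosome 19 (GENCODE M21 positions 34550694 to 34650009). All 4 rose in siDUSP6 cells. Ifit1 had 2056, 1591 and 1168 reads in siDUSP6 libraries, against 29, 19 and 38 in NC libraries. Its groups lay far apart, with every NC library under 50 reads, and it rose by 5.76 ± 0.25 (log2). Ifit3b had 691, 461 and 426 reads in siDUSP6 libraries, against 13, 4 and 23 in NC libraries. It rose by 5.25 ± 0.34 and Ifit3 by 4.73 ± 0.24 (log2), but 45.0% and 51.2% of their 50-base words also occur elsewhere, chiefly in each other, so the split of reads between them is uncertain. Without NC replicate 3, the NC library highest in Ifit3b, its estimate was 5.87. Ifit2 had 714, 493 and 449 reads in siDUSP6 libraries, against 208, 165 and 221 in NC libraries. It had the highest NC level of the family and rose least, by 1.44 ± 0.17 (log2). The family's adjusted p-values (DESeq2, from the authors' deposited table) ran from 2.52e-60 for Ifit1 to 3.10e-13 for Ifit2.

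Among the membrane, surface and secreted proteins, 5 of 6 rose in siDUSP6 cells and Ly6e was not listed. Bst2 (ENSMUSG00000046718, chr8:71534255-71537456, minus strand), also called tetherin, anchors budding virions to the cell surface. It had 7022, 7062 and 5221 reads in siDUSP6 libraries, against 707, 837 and 945 in NC libraries. The groups lay far apart, and Bst2 rose by 2.91 ± 0.13 (log2). Lgals3bp, a secreted glycoprotein that binds galectins, had 5128, 5086 and 3854 reads in siDUSP6 libraries, against 492, 605 and 792 in NC libraries. It rose by 2.86 ± 0.15 (log2), almost as much as Bst2 and from a similar level. Rtp4, a chaperone of G-protein-coupled receptors, had 578, 409 and 280 reads in siDUSP6 libraries, against 6, 3 and 5 in NC libraries. Rtp4 rose by 6.42 ± 0.38 (log2), with siDUSP6 libraries that differed among themselves more than those of Bst2.

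Ifitm3, which stops enveloped viruses from fusing with endosomal membranes, had 18, 39 and 23 reads in siDUSP6 libraries and 0 in each NC library. Its 80 reads were at least 26.7-fold higher than the floor of 3 counts taken over the NC group, so it was called at low depth. Shisa5, a protein of the endoplasmic reticulum membrane, had 5040, 4902 and 4135 reads in siDUSP6 libraries, against 1704, 1865 and 2008 in NC libraries. It had the smallest rise of this group, 1.29 ± 0.09 (log2), from the highest NC count of the group. Adjusted p-values (DESeq2) of these 5 genes in the authors' deposited table ran from 3.49e-120 for Bst2 to 2.22e-06 for Ifitm3.

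Rsad2 encodes viperin, which makes a modified nucleotide that ends viral RNA chains. It had 926, 660 and 533 reads in siDUSP6 libraries, against 8, 5 and 8 in NC libraries. Viperin transcripts were few in NC cells and rose by 6.59 ± 0.29 (log2; adjusted p = 1.62e-69, DESeq2, in the authors' deposited table). Cmpk2, the mitochondrial nucleotide kinase gene beside it on chromosome 12, was not listed in either table.

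All 4 genes that act on double-stranded or Z-form RNA rose in siDUSP6 cells. Eif2ak2 encodes PKR, the kinase that shuts off protein synthesis on binding double-stranded RNA. It had 2977, 2530 and 1978 reads in siDUSP6 libraries, against 543, 483 and 527 in NC libraries, and rose by 2.23 ± 0.13 (log2). Its NC libraries were close together and its siDUSP6 libraries were all above them. Zbp1, a sensor of Z-form nucleic acid that can start necroptosis, had 36, 25 and 23 reads in siDUSP6 libraries, against 1, 1 and 0 in NC libraries. Its 84 against 2 reads give a ratio of 42.0 (95% exact interval 11.3 to 352, counting error only), a wide interval set by the few NC reads. Znfx1, a helicase-like protein that binds RNA on mitochondria, had 2137, 2095 and 1960 reads in siDUSP6 libraries, against 919, 986 and 1093 in NC libraries. It had the smallest rise of the group, 1.01 ± 0.08 (log2), with the tightest siDUSP6 libraries. Adar, which edits adenosine to inosine in double-stranded RNA, rose by 1.36 ± 0.11 (log2), with 14.4% of its 50-base words shared with Chrnb2. The deposited adjusted p (DESeq2, the authors' deposited table) of these genes lay between 1.03e-62 for Eif2ak2 and 7.99e-05 for Zbp1.

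**Figure D2:**
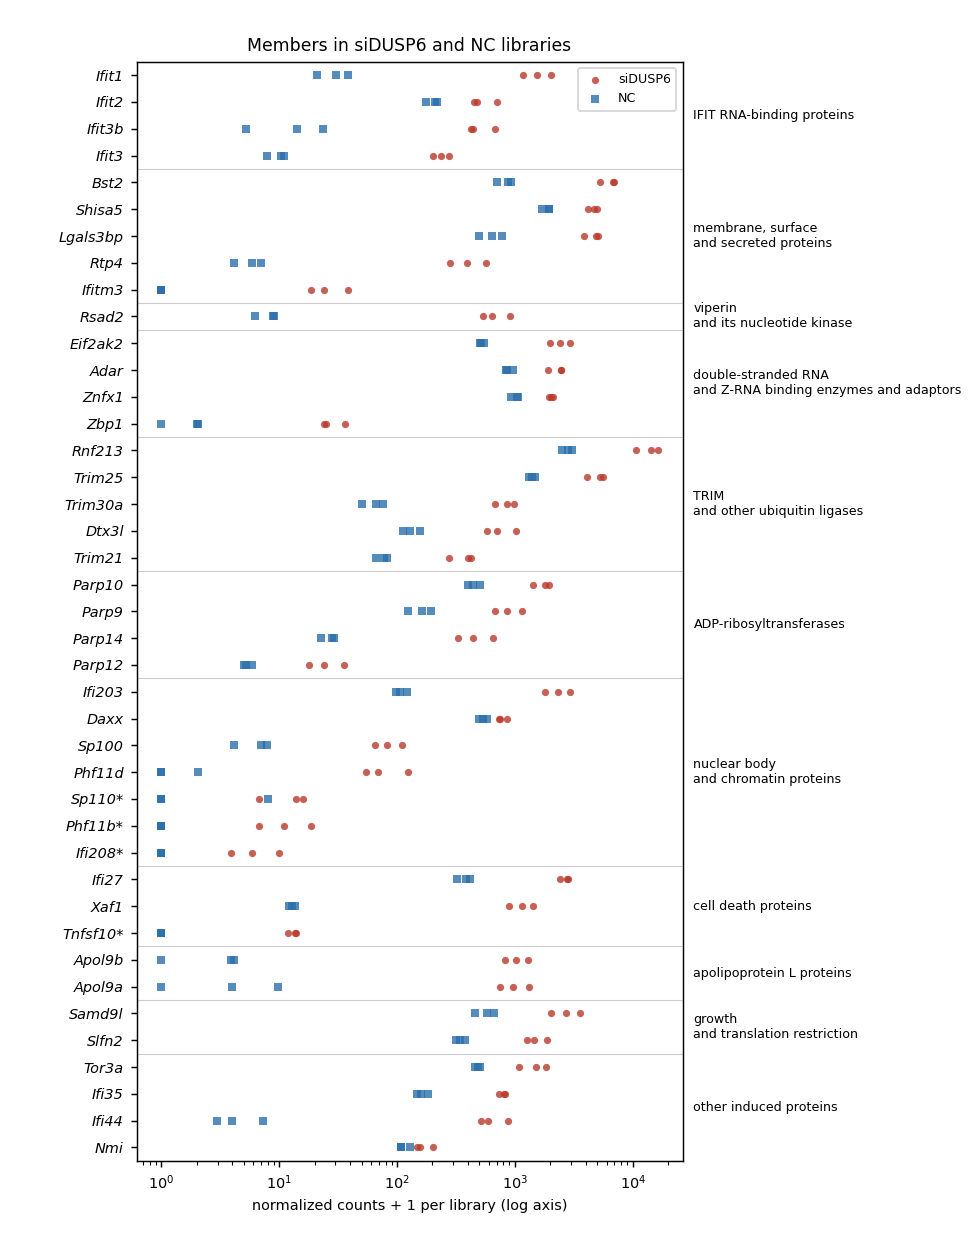
Normalized counts + 1 (log axis; deposited reads divided by size factors) of the 41 listed members in the 3 siDUSP6 libraries (circles) and the 3 NC libraries (squares), in role groups, with an asterisk where there is no adjusted p. Each called member shown has all siDUSP6 libraries above all NC libraries. Ifi203, for example, stood at 2349 ± 576 in siDUSP6 and 108 ± 12.5 in NC libraries. Daxx, with the smallest fitted rise of the called members, stood at 778 ± 67.0 in siDUSP6 and 539 ± 43.1 in NC libraries.

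All 5 ubiquitin ligase genes rose in siDUSP6 cells. Trim30a, a mouse TRIM protein that dampens signalling to NF-κB, had 994, 895 and 676 reads in siDUSP6 libraries, against 65, 71 and 51 in NC libraries. It rose most in this group, by 3.73 ± 0.18 (log2). Dtx3l, the ligase partner of PARP9, had 1034, 739 and 582 reads in siDUSP6 libraries, against 127, 105 and 159 in NC libraries, and rose by 2.55 ± 0.21. Rnf213, a very large ligase that coats intracellular bacteria with ubiquitin, had 16555, 14838 and 10699 reads in siDUSP6 libraries, against 3031, 2669 and 2582 in NC libraries. It held the most reads of any listed member in both groups and rose by 2.30 ± 0.13 (log2). Trim25, which ubiquitinates the RNA sensor RIG-I, had 5639, 5457 and 4120 reads in siDUSP6 libraries, against 1324, 1316 and 1501 in NC libraries. It rose least here, by 1.84 ± 0.10, while Trim21, a cytosolic antibody receptor, rose by 2.30 ± 0.19 (log2). The 5 adjusted p-values (DESeq2) in the authors' deposited table ran from 9.46e-86 for Trim30a to 4.18e-26 for Trim21.

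ADP-ribosyltransferases attach ADP-ribose to proteins, and all 4 measured here rose in siDUSP6 cells. Parp14 had 668, 457 and 327 reads in siDUSP6 libraries, against 27, 27 and 22 in NC libraries. Parp14 rose by 4.21 ± 0.28 (log2), with a wide spread among siDUSP6 libraries, all of them far above the NC libraries. Parp9, whose protein pairs with DTX3L, had 1176, 889 and 680 reads in siDUSP6 libraries, against 162, 118 and 199 in NC libraries. Parp9 rose by 2.48 ± 0.20 (log2), close to the rise of Dtx3l, and 9.40% of its exon bases overlap Dtx3l on the opposite strand, so without stated strand some reads cannot be assigned. Parp10, a mono-ADP-ribosyltransferase, had 1993, 1856 and 1415 reads in siDUSP6 libraries, against 398, 421 and 518 in NC libraries. Its rise was 1.94 ± 0.13 (log2), the smallest of the group, and Parp12, at 35, 24 and 17 reads in siDUSP6 libraries against 4, 4 and 5 in NC libraries, rose by 2.47 ± 0.46. Adjusted p-values (DESeq2) in the authors' deposited table ran from 2.51e-49 for Parp14 to 0.00179 for Parp12.

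Of 7 nuclear body and chromatin proteins 4 rose in siDUSP6 cells, and the other 3 had no adjusted p. Ifi203, a PYHIN protein of the family that holds DNA sensors, had 2993, 2396 and 1793 reads in siDUSP6 libraries, against 121, 92 and 108 in NC libraries. It rose by 4.44 ± 0.19 (log2) and had the smallest adjusted p of any member in the authors' deposited table, 1.54e-144 (DESeq2). Of its 50-base words 12.4% occur in other genes, Mndal and Ifi207 among them. Phf11d had 126, 71 and 53 reads in siDUSP6 libraries, against 0, 1 and 0 in NC libraries. Its 250 reads against 1 give a ratio of 250 (95% exact interval 44.5 to 9913, counting error only), and its fitted log2 fold change of 7.47 ± 0.73 became 9.38 without NC replicate 2, the library with that read. Sp100, a component of PML nuclear bodies, rose by 3.95 ± 0.37 (log2). Daxx, a histone H3.3 chaperone at those bodies, had 867, 784 and 724 reads in siDUSP6 libraries, against 495, 512 and 596 in NC libraries. Daxx had the smallest rise of any called member, 0.53 ± 0.10 (log2; adjusted p = 8.67e-05, DESeq2, in the authors' deposited table), though its groups did not overlap.

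Of 3 cell death genes 2 rose in siDUSP6 cells, and Tnfsf10 had no adjusted p. Xaf1, which binds the apoptosis inhibitor XIAP and favours apoptosis, had 1441, 1199 and 892 reads in siDUSP6 libraries, against 11, 12 and 12 in NC libraries. Its NC libraries were almost equal, and it rose by 6.60 ± 0.23 (log2). Ifi27, a small mitochondrial protein, had 2865, 2900 and 2420 reads in siDUSP6 libraries, against 318, 393 and 392 in NC libraries. Ifi27 rose by 2.85 ± 0.11 (log2); no NC library came near the siDUSP6 libraries. The adjusted p-values (DESeq2) in the authors' deposited table were 4.51e-111 for Xaf1 and 1.01e-140 for Ifi27.

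The 2 apolipoprotein L genes had the largest fitted fold changes of the members. Apol9b (ENSMUSG00000068246, chr15:77729039-77736382, plus strand) had 1311, 1071 and 823 reads in siDUSP6 libraries, against 0, 3 and 3 in NC libraries. Apol9a (ENSMUSG00000057346, chr15:77403789-77411135, minus strand) had 1330, 1011 and 749 reads in siDUSP6 libraries, against 3, 0 and 9 in NC libraries. Both genes were barely read in NC cells. Apol9b rose by 8.93 ± 0.34 and Apol9a by 7.92 ± 0.39 (log2), with an estimate of 9.25 for Apol9a without NC replicate 3. Of Apol9b's 50-base words 52.3%, and of Apol9a's 16.5%, occur in the other gene, so the division of reads between them is uncertain. Their adjusted p-values (DESeq2) in the authors' deposited table were 8.37e-47 for Apol9b and 5.93e-19 for Apol9a.

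Both genes that restrict growth and translation rose in siDUSP6 cells. Samd9l, which restricts protein synthesis and cell growth, had 3620, 2803 and 2029 reads in siDUSP6 libraries, against 662, 437 and 594 in NC libraries. Slfn2, a Schlafen protein that holds lymphocytes in quiescence in mice, had 1889, 1506 and 1270 reads in siDUSP6 libraries, against 372, 327 and 321 in NC libraries. Neither gene's groups overlapped. Samd9l rose by 2.28 ± 0.19 and Slfn2 by 2.15 ± 0.14 (log2), with adjusted p-values (DESeq2) in the authors' deposited table of 9.86e-15 for Samd9l and 1.58e-49 for Slfn2.

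Of the 5 remaining members 4 rose in siDUSP6 cells, and Epsti1 was not listed in either table. Ifi44, a protein related to GTP-binding proteins, had 884, 618 and 516 reads in siDUSP6 libraries, against 3, 6 and 2 in NC libraries, and rose by 7.43 ± 0.34 (log2). Ifi44 stood with Rsad2, Rtp4 and Xaf1 among the genes that were barely read in NC cells. Ifi35, which pairs with the protein NMI, had 820, 853 and 735 reads in siDUSP6 libraries, against 145, 174 and 164 in NC libraries, and rose by 2.27 ± 0.11. Nmi, its partner, had 206, 163 and 146 reads in siDUSP6 libraries, against 107, 121 and 110 in NC libraries. The groups of Nmi did not overlap but lay close together. It was higher by 0.57 ± 0.17 (log2) with an adjusted p of 0.0417 in the authors' deposited table (DESeq2), and 0.0554 in the edgeR refit, which misses the threshold. Tor3a, an ATPase of the endoplasmic reticulum, rose by 1.62 ± 0.16 (log2; adjusted p = 3.36e-22, DESeq2, in the authors' deposited table).

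The 15 members with an NC mean under 50 normalized reads had a median log2 fold change of 6.42 (2.47 to 8.93), and the 22 with a mean of at least 50 had a median of 2.25 (0.53 to 4.44). The NC level enters the fold change, so this is a description. Per kilobase of exon, Bst2 had the highest level in both groups, with 6990 ± 1038 normalized reads per kb in siDUSP6 libraries and 928 ± 126 in NC libraries (SD, n = 3 each). Ifi27 (1826 ± 150), Lgals3bp (1616 ± 226) and Shisa5 (1397 ± 127) followed in siDUSP6 libraries, and neighbours in that order lay within or near their spread. The lowest called members per kb in siDUSP6 libraries were Parp12 (6.22 ± 2.21) and Zbp1 (7.79 ± 1.95). The order changed between groups: Ifit1 was at rank 8 in siDUSP6 libraries and 23 in NC libraries, Apol9b at rank 9 in siDUSP6 and 30 in NC libraries, and Daxx at rank 19 in siDUSP6 and 7 in NC libraries.

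The siDUSP6 libraries differed among themselves in the same order for nearly all members. After normalization, replicate 1 was the highest in 35 of the 37 called members, replicate 2 in Ifi35 and Ifitm3, and replicate 3 was the lowest in 36, with Ifitm3 the exception. The median member stood at 1.23, 0.981 and 0.808 times its group mean in replicates 1, 2 and 3. Among the 980 other genes called higher, replicate 1 was the highest in 264 and replicate 3 the lowest in 305. Among the 160 of those that reached a log2 fold change of 1, the numbers were 98 and 103. Summed over the 41 listed members, normalized reads were 77766, 68105 and 54401 in siDUSP6 libraries, against 13454, 13895 and 14172 in NC libraries. The lowest siDUSP6 sum was still more than 3 times the highest NC sum.

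**Figure D3:**
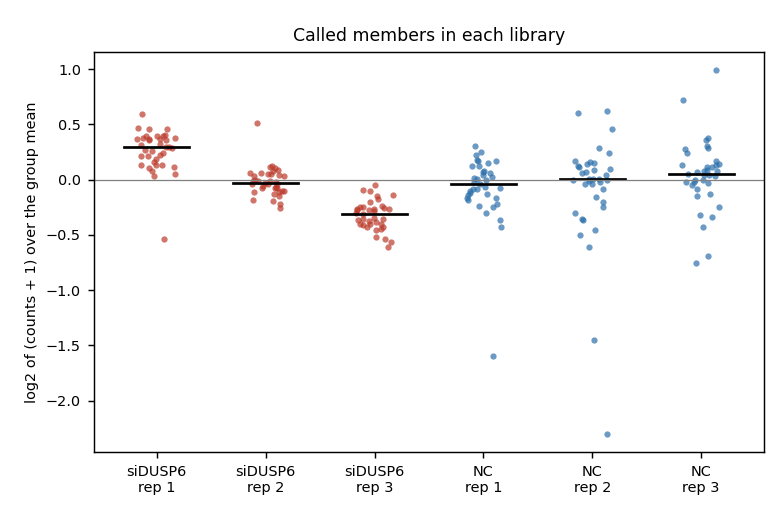
Level of each of the 37 called members in each library of the siRNA contrast relative to its group mean (y axis, log2 of normalized counts + 1), with 1 point per member and a bar at the median of the library. In siDUSP6 replicate 1 the median member stood at 1.23 times its group mean and in replicate 3 at 0.808 times.

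In the siRNA contrast 7 members had no call. Tnfsf10, the death ligand TRAIL, had 11, 13 and 13 reads in siDUSP6 libraries and 0 in each NC library, at least 12.3-fold higher than the floor of 3 counts over the NC group. Phf11b had 18, 6 and 10 reads in siDUSP6 libraries and 0 in each NC library, at least 11.3-fold, and Ifi208, another PYHIN gene, had 5, 3 and 9 and 0 in each NC library, at least 5.67-fold. These 3 genes were read in every siDUSP6 library and in no NC library, but have no adjusted p in the authors' deposited table. Sp110, a nuclear body protein, had 13, 6 and 15 reads in siDUSP6 libraries, against 7, 0 and 0 in NC libraries. Its groups overlapped, and 42.3% of its 50-base words and 47.0% of those of Phf11b occur in other genes. Cmpk2, Epsti1 and Ly6e were not listed. Of the 41 listed members 38 passed the filter on low counts in the edgeR refit.

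In the libraries labelled GFP-DUSP6 the 9 members that were higher came from 5 role groups: 2 of 4 IFIT genes, 3 of 6 membrane and secreted proteins, viperin, 1 of 5 ubiquitin ligases and both growth restriction genes. The other 35 members were not listed. The edgeR refit called 8 of the 9, all but Ly6e, whose sign turned when libraries were scaled over the listed genes, against 3.18% of tested genes called higher. The median log2 fold change of the 9 was 0.95 (0.17 to 1.36), against 0.44 over all 427 genes called higher and 0.43 over the 418 that are not members. A log2 fold change of at least 1 was reached by 3 members, against 0.278% of all tested genes. None of the 9 had overlapping groups, and neither did 99.7% of all called genes. Beside them, Cd14 (0.51 ± 0.06), the endothelial marker Stab1 (1.11 ± 0.13) and the hepatocyte marker Apob (0.33 ± 0.09; log2) rose in these libraries, and their part in the members' changes was not tested.

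Rsad2 had 96, 98 and 67 reads in the libraries labelled GFP-DUSP6, against 45, 26 and 25 in GFP libraries. It had the largest rise of the 9, 1.36 ± 0.26 (log2). Ifit1 had 85, 85 and 117 reads in libraries labelled GFP-DUSP6, against 60, 37 and 22 in GFP libraries, and was higher by 1.18 ± 0.28. Ifit2 had 159, 187 and 197 reads in libraries labelled GFP-DUSP6, against 110, 61 and 81 in GFP libraries, and was higher by 1.02 ± 0.19. These 3 genes were read at low depth, and their GFP libraries differed widely among themselves. In edgeR refits without single libraries the calls of Ifit1 (1.27 without GFP-DUSP6 replicate 2, 1.02 without GFP-DUSP6 replicate 3 and 0.87 without GFP replicate 3), of Ifit2 (0.96 without GFP-DUSP6 replicate 3) and of Rsad2 (1.18 without GFP replicate 3) were lost. The adjusted p-values (DESeq2) in the authors' deposited table were 0.00243 for Rsad2, 0.0171 for Ifit1 and 0.000492 for Ifit2.

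Slfn2 had 545, 558 and 587 reads in libraries labelled GFP-DUSP6, against 283, 251 and 270 in GFP libraries. It rose by 0.99 ± 0.10 (log2), with close replicates. Samd9l had 779, 657 and 737 reads in libraries labelled GFP-DUSP6, against 478, 240 and 344 in GFP libraries, and rose by 0.95 ± 0.17 with a wide spread among GFP libraries. Lgals3bp had 1440, 1529 and 1446 reads in libraries labelled GFP-DUSP6, against 795, 746 and 723 in GFP libraries, and its groups lay far apart. Bst2 had 1226, 1405 and 1439 reads in libraries labelled GFP-DUSP6, against 809, 842 and 802 in GFP libraries. Lgals3bp rose by 0.88 ± 0.07 and Bst2 by 0.65 ± 0.08 (log2). Rnf213 had 5323, 5467 and 5441 reads in libraries labelled GFP-DUSP6, against 3463, 3663 and 3922 in GFP libraries, and was higher by 0.47 ± 0.05. The adjusted p-values (DESeq2) of these 5 genes in the authors' deposited table ran from 3.52e-21 for Lgals3bp to 0.0258 for Samd9l.

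Ly6e, a surface protein that blocks entry of some coronaviruses, was listed for this contrast alone. It had 11622, 12740 and 12302 reads in libraries labelled GFP-DUSP6, against 9855, 10395 and 10460 in GFP libraries. It was higher by 0.17 ± 0.05 (log2; adjusted p = 0.0412, DESeq2, in the authors' deposited table), missed the threshold in the edgeR refit (adjusted p = 0.087), and its estimate was -0.13 with TMM and -0.15 with median-of-ratios scaling over the listed genes. Those scalings shift all listed genes of the plasmid contrast by -0.30 and -0.32 (log2). They take the share of higher calls from 75.6% of 529 in the edgeR refit to 26.8% of 213 and 22.0% of 200, and leave 5 and 3 members called higher. Ifit1, Ifit2, Rnf213 and Ly6e had no call under either scaling, nor did Rsad2 and Samd9l under median of ratios. In the siRNA contrast the same scalings shift the listed genes by -0.05 and -0.10, the share of higher calls is 53.0% in the edgeR refit, 40.4% and 33.9%, and 37 members were called higher under each. Both tables hold selected genes only, and whole-library size factors worked out from the authors' columns were used for all other values.

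**Figure D4:**
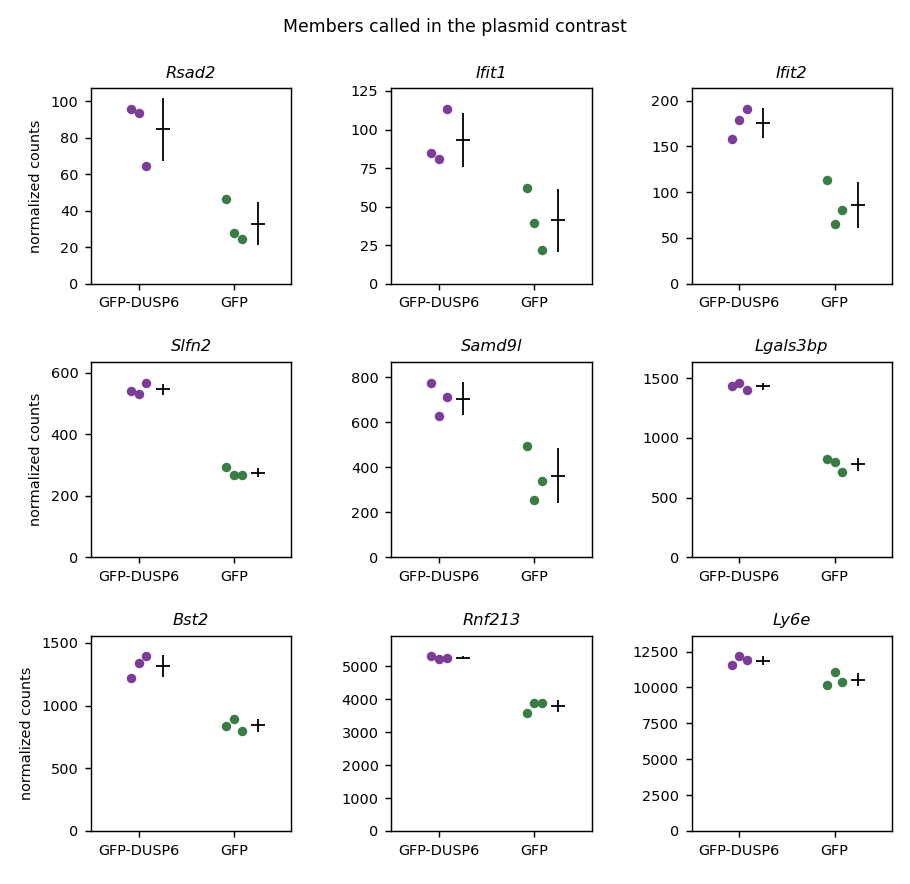
Normalized counts (linear axes from 0, a panel per gene) of the 9 members listed in the plasmid contrast, in the 3 libraries labelled GFP-DUSP6 and the 3 GFP libraries, with points for libraries and a bar for the mean ± SD. Every library labelled GFP-DUSP6 lies above every GFP library for each gene, from Ly6e, whose sign turns with scaling over the listed genes, at 11870 ± 299 against 10537 ± 460 to Rsad2 at 84.6 ± 17.2 against 33.0 ± 11.8.

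The 8 members listed in both tables allow the contrasts themselves to be compared, in an edgeR fit over the 257 genes listed in both. Of these genes 80.2% differed between contrasts, counted in either direction, and the share with a larger rise in the siRNA contrast was not counted. The estimated rise was larger in the siRNA contrast for each of the 8, and the difference passed an adjusted p of 0.05 (edgeR) for 6 of them. Passing was about as common among these members as among all 257 genes. The difference (siRNA minus plasmid, log2) was 5.23 ± 0.50 for Rsad2, 4.58 ± 0.48 for Ifit1, 2.27 ± 0.16 for Bst2, 1.98 ± 0.19 for Lgals3bp, 1.83 ± 0.16 for Rnf213 and 1.16 ± 0.18 for Slfn2. The adjusted p-values of these 6 in edgeR ran from 3.92e-06 for Bst2 to 0.00181 for Slfn2. For Samd9l the difference was 1.33 ± 0.32 (edgeR adjusted p = 0.0563) and for Ifit2 0.42 ± 0.30 (unadjusted p = 0.18), which did not pass. The NC and GFP levels enter these differences, and each contrast was scaled by itself. Rsad2 averaged 7.03 normalized reads in NC and 33.0 in GFP libraries, and Ifit2 199 in NC and 86.3 in GFP libraries. Time, kind of nucleic acid and control all differ between the contrasts and cannot be told apart.

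**Figure D5:**
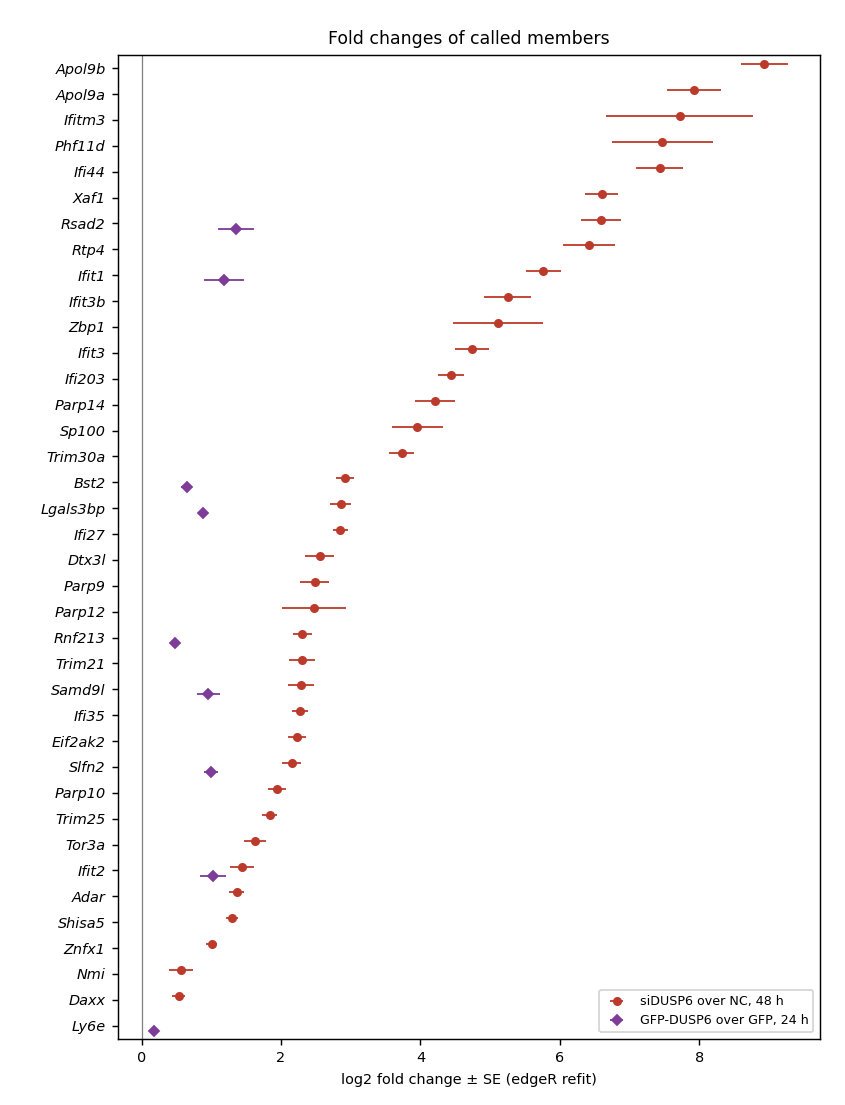
Log2 fold changes with standard errors (edgeR) of called members, siDUSP6 over NC and GFP-DUSP6 over GFP, ordered by the siRNA estimate, with no point where a table does not list the gene. Ifitm3 had no NC read, so its fitted point depends on the fitting and is no bound. The siRNA estimates of called members run from 0.53 to 8.93 and the plasmid estimates from 0.17 to 1.36.

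Other genes of the pathway were counted from written lists. Of 49 matched relatives of the members (other IFIT, PYHIN, TRIM, Schlafen and PARP genes, and genes of other families such as Helz2, Isg20 and Tdrd7), 21 rose and 0 fell in siDUSP6 cells, and the smallest adjusted p-values in the authors' deposited table belonged to Helz2 (2.38 ± 0.10), Mndal (4.80 ± 0.24) and Ifi207 (3.25 ± 0.19; log2). In the libraries labelled GFP-DUSP6, 1 rose, Slfn9 (1.09 ± 0.19), and 1, the exonuclease gene Isg20, changed by -0.27 ± 0.05 (log2). Of 11 interferon genes 0 were listed in either table, and a gene that is not listed has no value here. Among receptor and signalling genes, Irf9 (3.12 ± 0.14) and Stat2 (2.01 ± 0.13; log2) rose in siDUSP6 cells. Ifngr2, which encodes a chain of the type II interferon receptor, rose in the libraries labelled GFP-DUSP6 (0.45 ± 0.10; log2).

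Of 8 negative regulators Usp18, which removes ISG15 and dampens the receptor, was listed. It averaged 1289 ± 351 normalized reads in siDUSP6 libraries and 14.5 ± 3.33 in NC libraries (SD, n = 3 each), a rise of 6.46 ± 0.26 (log2), and it rose by 1.55 ± 0.31 in the libraries labelled GFP-DUSP6. Of 15 factors that induce interferon, 5 rose in siDUSP6 cells, among them Irf7 (7.14 ± 0.24), the double-stranded RNA receptor gene Tlr3 (1.63 ± 0.15) and Irf1 (0.90 ± 0.15). In the libraries labelled GFP-DUSP6, 3 rose: Ikbke (1.32 ± 0.07), Irf1 (0.78 ± 0.12) and Traf3 (0.45 ± 0.07). No listed gene among the negative regulators and inducing factors was called lower in either contrast.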

How the data were processed

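RNA sequencing of 12 libraries of AML12 cells was analysed from 2 deposited tables, one for each contrast. Per the file headers both hold read counts per gene and library, log2 fold changes and p-values, raw and adjusted. Only the siRNA contrast has, in addition, the deposited mean of the normalized signal and the deposited fold change as a ratio. Per the submitters' processing notes the authors used DESeq2 and mm10; an aligner, a counter or a strand setting is not named there. Both deposited tables hold selected genes with a p-value under 0.05, so calls are the authors' deposited adjusted p-values under 0.05. The numbers of tested genes, 13102 and 12592, follow from the deposited raw and adjusted p-values.

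Whole-library size factors were worked out from the deposited mean normalized signal in the siRNA contrast. In the plasmid contrast they were fitted to the deposited log2 fold changes of 489 genes with over 200 counts in each library (largest error 0.000652), up to a common scale. The deposited counts were refitted with edgeR 4.0.16 (quasi-likelihood, filterByExpr with a minimum count of 10) in R 4.3.3, and with DESeq2 1.42.0 as an alternative, with Benjamini-Hochberg adjustment over the tested genes; the code was tested on simulated data. Other alternatives were TMM and median-of-ratios scaling, no filter, a replicate block, stricter calls and leaving out each library. Intervals and the floor of 3 counts cover counting error only. Total depth is not given by tables of selected genes, and low counts limit precision.

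All called members of the plasmid contrast are named with their counts, as are, in each role group, the 2 with the largest and the 1 with the smallest siRNA fold change; members without an adjusted p, and Parp12, were added after their values were seen. Genes of other lists are the up to 3 with the smallest adjusted p. The members and lists were chosen with earlier results of these data known. GENCODE M21 gave positions, exon lengths and shared 50-base words, and RefSeq gave promoters. Protein sequences were not used here. The receptor and signalling list is reported in part, and its other genes are not reported here.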

Additional observations from a re-analysis of the deposited data

Results flagged for a closer look

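The rise of 6 members differed between the siRNA and the plasmid contrast by a test of the difference itself (edgeR, log2, siRNA minus plasmid). The differences were 5.23 for Rsad2, 4.58 for Ifit1, 2.27 for Bst2, 1.98 for Lgals3bp, 1.83 for Rnf213 and 1.16 for Slfn2. All 6 were called higher in both contrasts by the authors' deposited adjusted p (DESeq2). In the plasmid contrast Ifit1 and Rnf213 lost the call in edgeR refits with TMM or median-of-ratios scaling over the listed genes. Rsad2 lost it there under median of ratios. Of the 257 genes listed for both contrasts, 80.2% passed the same test in either direction, so a difference was common among them.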

How the results depend on the processing

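In the siRNA contrast 35 to 40 members were called higher and 0 lower under every alternative run, 37 to 39 when single libraries were left out. In the plasmid contrast 9 were called higher, but 3 when the log2 fold change had to reach 1, 5 with TMM and 3 with median-of-ratios scaling over the listed genes. Leaving out single libraries gave 6 to 9, with 6 without GFP-DUSP6 replicate 3 and 6 without GFP replicate 3. Ly6e reversed to -0.13 with TMM and to -0.15 with median of ratios; these scalings shift all listed plasmid genes by -0.30 and -0.32. The difference between contrasts passed for 6 members, 7 with TMM, and 6 to 7 without single libraries. Of 341 siRNA fold changes under alternatives 339 kept direction and side of the threshold, as did 81 of 99 plasmid fold changes, of which 13 lost the call.

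Replicate numbers were shared by the groups, but the same-numbered libraries did not all deviate together. The correlations of their deviations were 0.374, 0.0943 and 0.18 in the siRNA contrast and 0.348, 0.366 and 0.0115 in the plasmid contrast. Between libraries of different number they ran from -0.281 to 0.154 in the siRNA contrast and from -0.378 to 0.0163 in the plasmid contrast. The main fits did not take the numbers as pairs. A fit with the replicate block called 38 members higher in the siRNA contrast, 9 in the plasmid contrast and 7 differences. Over all genes it called 1967 and 584, against 1605 and 529 without the block. Low depth limits Parp12, Zbp1, Phf11b, Phf11d, Ifi208, Ifitm3, Tnfsf10 and Sp110. Tables of selected genes limit every statement on members that are not listed.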

Other observations

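Several members are neighbours in the genome (GENCODE M21, gaps under 100 kb). Rsad2 and Cmpk2 lie 12751 bases apart on chromosome 12; Rsad2 was called in both contrasts and Cmpk2 was not listed in either. The 4 IFIT genes among the members stand in the order Ifit2, Ifit3, Ifit3b and Ifit1 on chromosome 19, with gaps of 7111, 19238 and 27469 bases. In siDUSP6 cells these members rose by 1.44, 4.73, 5.25 and 5.76 (log2), named in the same order. The estimates of Ifit3 and Ifit3b overlapped within their standard errors, and the split of reads between them is uncertain. A trend with position was not tested. Parp14, Dtx3l and Parp9 lie together on chromosome 16 and rose by 4.21, 2.55 and 2.48 (log2). Phf11b and Phf11d lie 6055 bases apart on chromosome 14, and in the 3 libraries of a group together Phf11b had 34 reads in siDUSP6 cells and 0 in NC cells, and Phf11d 250 in siDUSP6 cells and 1 in NC cells.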
